A study of Mus musculus with 39 samples.

Results

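The genes of the ryanodine receptor and of the junction where it sits were followed through 39 libraries of mouse left ventricle. The set holds 10 genes (Ryr2, Fkbp1b, Sri, Casq1, Casq2, Trdn, Asph, Jph1, Jph2 and Slc8a1), chosen by symbol and role with no cutoff on a measured value, out of 38293 genes in the count table. Each symbol matched 1 gene of the table, and all 10 passed the filter on low counts in every comparison. The hearts came from C57BL6/J mice in 2 experiments, sequenced as polyadenylated RNA with a stranded kit. In the first, hearts without surgery were wild type (Pln wt) or homozygous (Pln R14del/R14del) at the ages of 3 and 5 weeks (n = 4 each), and wild type (n = 3), heterozygous (Pln wt/R14del, n = 4) or homozygous (n = 4) at 8 weeks. R14del removes arginine 14 of phospholamban, a small protein that slows calcium uptake into the sarcoplasmic reticulum. In the second, wild type males operated on at 12 weeks had a left anterior descending coronary artery that was tied for a time (ischemia-reperfusion, sampled after 3 days, n = 4) or for good (infarction, sampled after 8 weeks at an age of 20 weeks, n = 4), or a sham operation (2 hearts of each age, pooled as 1 group of 4). Surgical samples were ventricular tissue remote from the infarct, so they do not describe the scar or its border. The sex of the mutant set is not given in the labels, and each library has an ID of its own and is called a heart here, although the labels do not state that each came from a separate animal. The p-values cover the variation among these libraries, part of which may be technical.

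In heart muscle, calcium that enters through a surface channel opens the ryanodine receptor on the facing membrane of the sarcoplasmic reticulum, and the calcium released there starts contraction. The receptor works in a complex. Fkbp1b (FKBP12.6) and Sri (sorcin) bind it from the cytosol, while Trdn (triadin) and the junctin product of Asph span the membrane and link it to calsequestrin, the calcium store protein of the lumen. Casq2 is the cardiac calsequestrin and Casq1 that of fast skeletal muscle. The junctophilins Jph2, the main form of the heart, and Jph1 hold the surface membrane and the reticulum close together, and Slc8a1 (NCX1) carries calcium back out of the cell.

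The wild type sequence around the deleted codon shows what the mutant animals lack. It is given from codon 10 to codon 18 of the Pln reading frame, read from the GENCODE vM21 transcript (GRCm38, chromosome 10, plus strand), with codon 14 in capitals.
Pln codons 10 to 18: tcggctatcaggAGAgcctccactatt

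Promoters of 5 of the genes are printed here. Ryr2 and Jph2 fell and Fkbp1b and Sri rose in homozygous hearts, and Casq2 had the highest level per length. Trdn, Asph and Jph1 also fell in homozygous hearts of 5 and 8 weeks, but the RefSeq set used here held no promoter for them. Each runs from 250 bases before to 50 bases after the RefSeq transcription start in GRCm38.p6, 5′ to 3′ on the gene's strand. The windows are chr13:12106896-12107195 (minus) for Ryr2, chr2:163397944-163398243 (minus) for the first of 2 starts of Jph2, chr12:4841524-4841823 (minus) for Fkbp1b, chr5:8045828-8046127 (plus) for Sri and chr3:102086165-102086464 (plus) for Casq2. Capitals mark matches, on either strand, to the GATA motif GATAA, the E-box CANNTG, the TATA box TATAAA, the CACC box CACCC or the MEF2 motif. 
Ryr2 promoter: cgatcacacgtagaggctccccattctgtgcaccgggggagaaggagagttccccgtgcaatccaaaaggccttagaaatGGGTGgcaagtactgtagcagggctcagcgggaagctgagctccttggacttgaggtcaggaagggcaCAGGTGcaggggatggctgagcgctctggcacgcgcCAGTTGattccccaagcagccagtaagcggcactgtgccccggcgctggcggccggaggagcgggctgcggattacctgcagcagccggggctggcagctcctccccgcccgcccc
Jph2 promoter: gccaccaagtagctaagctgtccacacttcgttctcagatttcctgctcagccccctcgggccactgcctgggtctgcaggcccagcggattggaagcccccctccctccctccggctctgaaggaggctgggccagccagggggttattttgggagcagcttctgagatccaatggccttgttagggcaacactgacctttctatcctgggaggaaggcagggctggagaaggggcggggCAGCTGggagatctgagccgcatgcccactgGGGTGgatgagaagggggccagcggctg
Fkbp1b promoter: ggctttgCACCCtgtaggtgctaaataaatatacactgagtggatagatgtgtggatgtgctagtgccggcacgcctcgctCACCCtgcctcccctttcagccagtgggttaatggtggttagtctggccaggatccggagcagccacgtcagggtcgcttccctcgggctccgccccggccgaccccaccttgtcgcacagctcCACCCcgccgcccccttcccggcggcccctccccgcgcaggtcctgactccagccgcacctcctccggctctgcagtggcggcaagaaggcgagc
Sri promoter: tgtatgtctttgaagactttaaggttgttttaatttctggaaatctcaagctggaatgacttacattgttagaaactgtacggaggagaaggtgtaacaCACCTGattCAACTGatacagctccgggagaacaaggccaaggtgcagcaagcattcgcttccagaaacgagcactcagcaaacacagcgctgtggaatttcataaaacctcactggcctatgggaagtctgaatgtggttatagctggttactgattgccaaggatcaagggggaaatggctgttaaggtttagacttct
Casq2 promoter: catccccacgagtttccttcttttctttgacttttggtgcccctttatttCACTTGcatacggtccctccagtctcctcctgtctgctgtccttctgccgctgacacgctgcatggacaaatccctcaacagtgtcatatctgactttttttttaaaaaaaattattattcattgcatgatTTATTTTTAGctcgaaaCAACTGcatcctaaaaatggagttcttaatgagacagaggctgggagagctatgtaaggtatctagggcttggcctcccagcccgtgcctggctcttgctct

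RefSeq held promoters for 7 of the 10 genes, 8 in all since Jph2 has 2 starts. The 2 Jph2 windows overlap, and the same CANNTG match and a shared CACCC match are counted in both. CANNTG occurred in 7 of these 8 windows, beside 72.3% of 32851 mouse promoters of the same length. CACCC occurred in 6 of 8 (57.5% of all), GATAA in 2 of 8 (25.4%) and TATAAA in 0 of 8 (13.6%). The MEF2 motif, named for a factor of muscle gene expression, occurred once, in the Casq2 window at base -69 from the start, beside 3.19% of all promoters. CANNTG stands at -102 and -66 in the Ryr2 window and at -151 and -142 in the Sri window, and the Fkbp1b window has none and holds 3 CACCC matches. The GC content was 65.3% for Ryr2, 65.7% for Fkbp1b and 63.0% for the first Jph2 start, against 43.7% for Sri and 44.7% for Casq2, with a median of 52.7% over all promoters. No match to these letters shares bases with another in the windows printed.

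Total counts ran from 9.40 M to 19.32 M per library, and the 10 genes together took 0.217% to 0.428% of them. Levels are given as CPM, which sets counts against library size scaled with TMM factors over all 39 libraries, and a level per kilobase divides this by the merged exon length in GENCODE vM21. No 2 replicates of a group had identical counts in 57 pairs, with a chi-square per gene of 4.03 to 97.4. Cardiomyocyte markers were high in all libraries, with 11 genes summing to 30749 to 64714 CPM, and 9 fast skeletal muscle genes summed to 2.76 to 32.2 CPM. Pln is in the cardiomyocyte list and also among the other coupling and reticulum genes described below, so a fall of Pln counts in both lists. Pln counts do not show a deletion of 1 codon, so they check no genotype label. In 2 libraries the stress gene Nppa stood far above its group, homozygous 3 weeks replicate 3 (1567 CPM, others 217 to 245) and heterozygous replicate 2 (2279 CPM, others 125 to 264). They also held the lowest Ryr2 of their groups and the 2 highest fast skeletal sums, 20.5 and 32.2 CPM. In sham 12 weeks replicate 2, Ryr2 (894 CPM) and Casq2 (698 CPM) were the lowest of the sham group. In bulk tissue, fewer cells of a type and less RNA per cell cannot be told apart.

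Per kilobase, the order of the 10 genes in wild type hearts of 8 weeks began with Casq2 at 385 ± 18.6 CPM per kb (mean ± SD, n = 3). Jph2 followed at 157 ± 6.08 and Ryr2 at 52.3 ± 3.09 CPM per kb. Below them stood Trdn at 20.97 ± 1.53, Asph at 13.7 ± 0.710, Casq1 at 11.0 ± 7.22 and Sri at 8.57 ± 0.685 CPM per kb. The lowest were Slc8a1 at 5.63 ± 0.343, Jph1 at 5.31 ± 0.194 and Fkbp1b at 0.881 ± 0.393 CPM per kb. Neighbours whose ranges overlapped in that group were Asph with Casq1, Casq1 with Sri and Slc8a1 with Jph1. Casq2, Jph2 and Ryr2 kept the first 3 places in all 10 groups, although the range of Ryr2 overlapped that of Casq1 in homozygous hearts of 3 and 5 weeks and that of Trdn in sham and ischemia-reperfusion hearts. Sri held rank 7 in wild type hearts and rank 5 in homozygous hearts of 8 weeks, at 15.9 ± 1.32 CPM per kb, where its range overlapped that of Trdn at 16.1 ± 2.33. In the same hearts Fkbp1b at 3.59 ± 0.135 overlapped Jph1 at 3.44 ± 0.661 CPM per kb and the range of Casq1. In the other 9 groups it was the last gene, and its range overlapped that of Slc8a1 in ischemia-reperfusion hearts and no other.

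**Figure D1:**
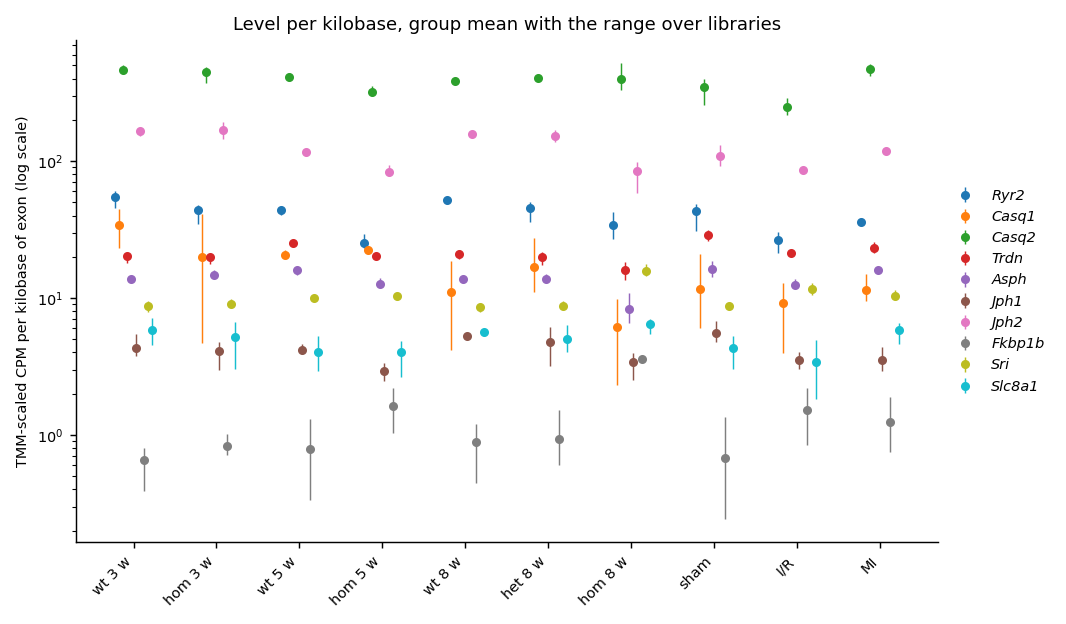
Level of each gene per kilobase of exon in the 10 groups, as the group mean (point) with the range over libraries (line), in TMM-scaled CPM per kb on a log axis, with n = 4 libraries a group, 3 for wild type at 8 weeks. Casq2, Jph2 and Ryr2 have the 3 highest means in each group, and Fkbp1b reaches the range of Jph1 in homozygous hearts of 8 weeks alone.

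The genes differed in how much libraries of a group varied. The median coefficient of variation over the 10 groups was 5.85% for Asph, 6.94% for Jph2, 7.005% for Sri, 7.36% for Trdn and 8.03% for Casq2. It was 12.98% for Ryr2, 17.6% for Jph1, 22.1% for Slc8a1, 40.8% for Fkbp1b and 43.7% for Casq1. Casq1 ranged within 1 group from 9.17 to 80.8 CPM (homozygous, 3 weeks), with the highest value in the library with the raised fast skeletal sum. It stood higher still, at 87.5 CPM, in wild type 3 weeks replicate 2, in a group with fast skeletal sums of 4.75 to 7.51 CPM. Fkbp1b rested on few reads, with 2 to 35 counts per library outside homozygous hearts of 8 weeks and 57 to 72 counts there.

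**Figure D2:**
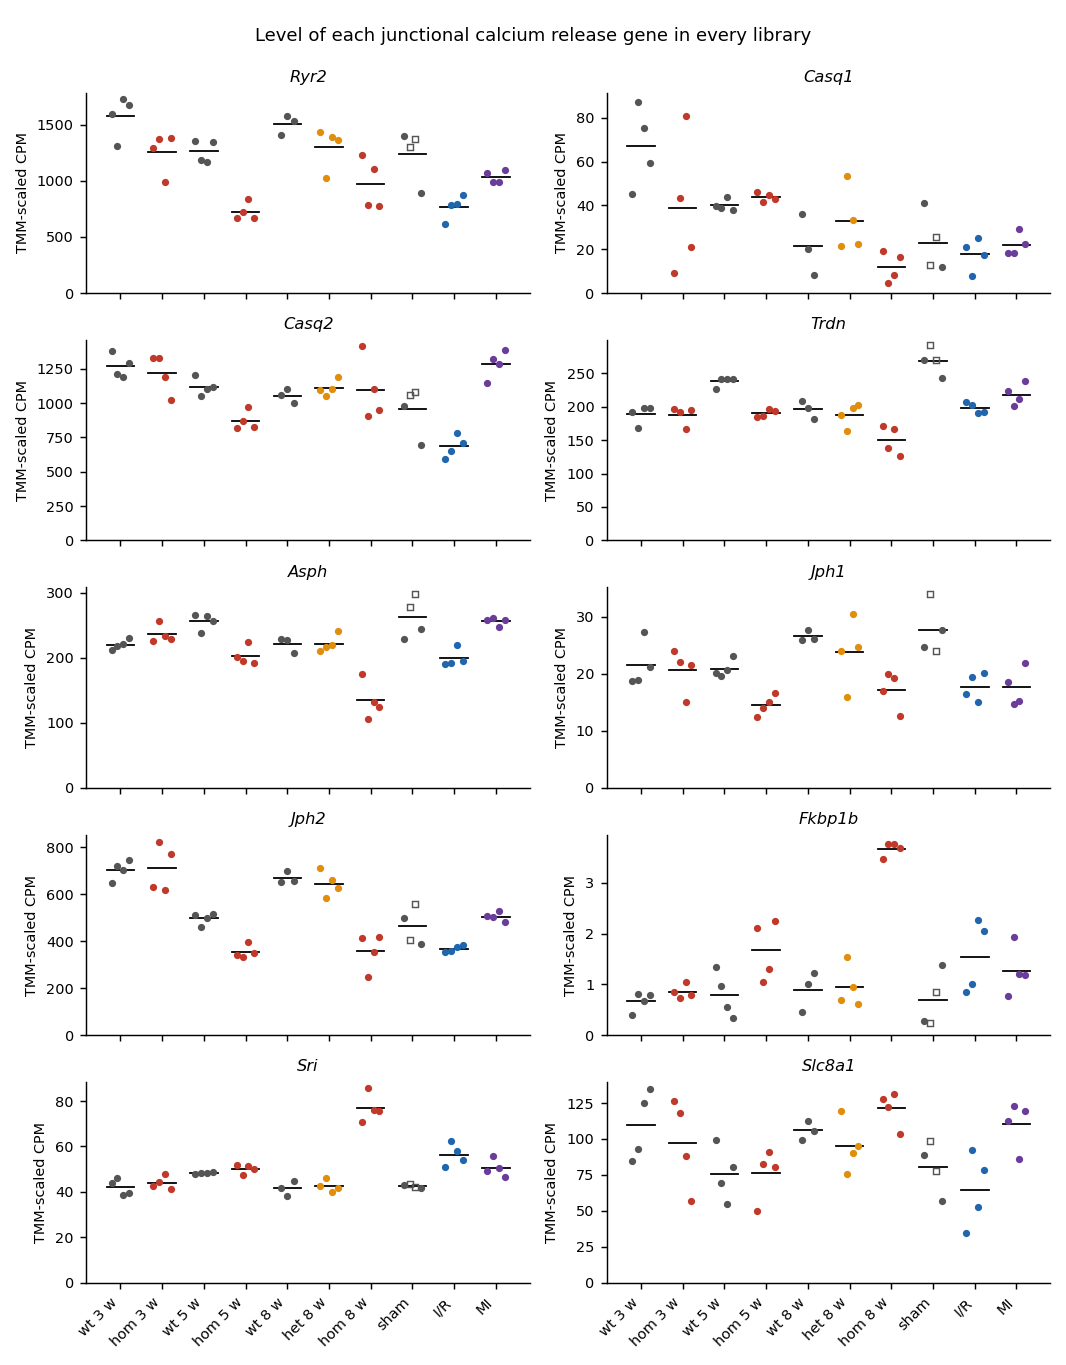
TMM-scaled CPM of each of the 10 genes in every library (points) with the group mean (line), for wild type (wt), homozygous (hom) and heterozygous (het) hearts at 3, 5 and 8 weeks (w) and for sham, ischemia-reperfusion (I/R) and infarction (MI) hearts, where open squares are sham hearts of 20 weeks. Each axis starts at 0. Ryr2 and Jph2 lie below wild type in homozygous hearts of 5 and 8 weeks, and Sri and Fkbp1b lie above all other groups in homozygous hearts of 8 weeks.

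At 3 weeks none of the 10 genes passed the test between homozygous and wild type hearts. Of 13427 genes the edgeR quasi-likelihood test called 0 (0.0%), although 1515 had an unadjusted p under 0.05, and DESeq2 called 118 genes but none of the 10. Ryr2, the release channel, stood at 1601, 1314, 1733 and 1679 CPM in the wild type and at 1294, 1370.2, 992 and 1379.6 CPM in the homozygous hearts. The groups overlapped, and the lowest homozygous value was that of replicate 3. Ryr2 had a log2 fold change ± SE of -0.34 ± 0.12 (edgeR adjusted p = 0.357), the only 1 of the 10 with an unadjusted p under 0.05, and without replicate 3 the log2 change was -0.24 (edgeR adjusted p = 0.418). Jph2, the main tether of the junction, showed 0.0042 ± 0.10 (edgeR adjusted p = 0.991) on the log2 scale and Sri 0.052 ± 0.086 (edgeR adjusted p = 0.859). Casq1 had the widest interval, -0.80 ± 0.49 (edgeR adjusted p = 0.563). The 10 genes had a median log2 change of -0.048, beside 0.00014 over all genes, and of the 26 tested genes among 32 other coupling and reticulum genes none was called.

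At 5 weeks, 6 of the 10 genes fell in homozygous hearts and 1 rose. The receptor Ryr2 was lower and so were the luminal and membrane partners Casq2, Trdn and Asph and both junctophilins, while Fkbp1b, the receptor-binding immunophilin, was higher. Over all genes tested 21.4% were called lower and 22.3% higher, and the median log2 change of the 10 genes was -0.33 beside -0.0012 over all genes.

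Ryr2 stood at 1360.2, 1185, 1168 and 1351 CPM in the wild type and 666, 724, 840.3 and 672 CPM in the homozygous hearts. The highest homozygous heart was below the lowest wild type heart, with a log2 fold change ± SE of -0.80 ± 0.083 (edgeR adjusted p = 2.51e-07). Fkbp1b held 14, 11, 6 and 4 counts in wild type and 24, 13, 14 and 29 counts in homozygous libraries, or 0.802 ± 0.447 against 1.67 ± 0.588 CPM (mean ± SD, n = 4 each). Its groups overlapped, with a log2 fold change ± SE of 1.08 ± 0.40 (edgeR adjusted p = 0.0381). That call ended without any 1 of wild type replicates 3 and 4 and homozygous replicates 1 and 4, with a log2 change of 0.81 to 0.95 (edgeR adjusted p = 0.0993 to 0.133). At 5 weeks Fkbp1b passed the filter on low counts through the homozygous libraries, since wild type replicates 3 and 4 held too few counts. The call was kept with no filter. Sri, the other cytosolic partner, lay at 47.7 to 48.8 CPM in wild type and 47.3 to 51.96 CPM in homozygous hearts, with 0.055 ± 0.066 (edgeR adjusted p = 0.535).

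In the lumen, Casq2 stood at 1203, 1049, 1103 and 1115 CPM in wild type and 822, 867, 974 and 827 CPM in homozygous hearts, without overlap, with a log2 fold change ± SE of -0.36 ± 0.072 (edgeR adjusted p = 0.000532). Trdn, which anchors calsequestrin to the receptor, was at 227, 241, 242 and 241 and 185, 187, 197 and 193 CPM. It fell, with a narrow spread in both groups, -0.32 ± 0.060 (edgeR adjusted p = 0.000238), and its groups did not overlap. Asph, whose gene also encodes an aspartyl hydroxylase, was at 266, 239, 264 and 257 and 201, 196, 225 and 193 CPM, with -0.33 ± 0.067 (edgeR adjusted p = 0.000504). Casq1 lay at 37.8 to 43.9 CPM in wild type and 41.6 to 46.3 CPM in homozygous hearts and did not pass, 0.13 ± 0.075 (edgeR adjusted p = 0.182).

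Of the junctophilins, Jph2 stood at 511, 462, 499 and 514 CPM in wild type and 342, 333, 396 and 352 CPM in homozygous hearts, with a log2 fold change ± SE of -0.48 ± 0.069 (edgeR adjusted p = 1.50e-05). Jph1, the less abundant form, was at 20.1, 19.5, 20.6 and 23.2 and 12.5, 14.1, 15.1 and 16.6 CPM, with -0.51 ± 0.11 (edgeR adjusted p = 0.000728). Neither gene's groups overlapped. Slc8a1, the exchanger, lay at 54.9 to 99.1 CPM in wild type and 49.9 to 91.0 CPM in homozygous hearts, with 0.0049 ± 0.16 (edgeR adjusted p = 0.983). Scaling by library size alone, which moved the median of all genes to 0.21, ended the calls of Casq2, Trdn and Asph (edgeR adjusted p = 0.0558, 0.118 and 0.0922) and gave 3 genes higher and 3 lower, with Sri (0.26, adjusted p = 0.00322) and Casq1 (0.33, adjusted p = 0.00121) added to the rises. Ryr2, Jph1 and Jph2 were lower under all 7 alternatives and with each of the 8 libraries left out.

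Markers of several cell types moved in the same hearts. The 11 cardiomyocyte markers summed to 52923 to 56087 CPM in wild type and 39229.8 to 44116 CPM in homozygous hearts at 5 weeks, with 8 of 11 lower, none higher and none at 0. Pln was among the 8 lower markers. The 6 fibroblast markers summed to 1223 to 1252 and 2877 to 3542 CPM, with 6 of 6 higher, and the 6 macrophage markers to 330.3 to 362 and 1346 to 1699.6 CPM, with 5 higher and 1 lower. All 5 endothelial markers were lower, at 1317 to 1422 and 736 to 849 CPM in sum, as were all 5 of smooth muscle and pericytes, at 1556 to 1762 and 1020.5 to 1086 CPM. Of 6 atrial cardiomyocyte markers 5 were tested and 2 were higher, with sums of 209 to 493 and 4491 to 6851 CPM. Most of the homozygous sum was the stress gene Nppa, at 4407 to 6771 CPM beside 173 to 297 CPM in wild type. Of the 5 tested, 3 had a log2 change above 0 and 2 below. Myl7 of this list overlapped, at 9.72 to 74.2 CPM in wild type and 23.5 to 38.3 CPM in homozygous hearts. The part of all these markers in the changes of the 10 genes was not tested. Of 32 other coupling and reticulum genes 25 were tested, and 11 fell and 6 rose. The largest falls were those of Hrc, a calcium-binding protein of the lumen, at -1.10 ± 0.10 (edgeR adjusted p = 5.22e-08), Pln itself at -0.79 ± 0.074 (edgeR adjusted p = 7.37e-08) and the calcium pump Atp2a2 at -0.76 ± 0.094 (edgeR adjusted p = 2.45e-06). The largest rises were those of Calr, a calcium-binding chaperone, at 1.13 ± 0.071 (edgeR adjusted p = 4.48e-10), Bin1, which shapes the transverse tubules, at 0.41 ± 0.11 (edgeR adjusted p = 0.00453), and Atp2b1, a calcium pump of the surface membrane, at 0.32 ± 0.075 (edgeR adjusted p = 0.0018).

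At 8 weeks, 5 of the 10 genes fell and 2 rose in homozygous hearts. Jph2 and Asph showed the deepest falls, Ryr2, Jph1 and Trdn were lower as well, and Fkbp1b and Sri, both binding partners of the receptor on the cytosolic side, rose 4.04-fold and 1.82-fold. The test called 29.0% of genes lower and 30.8% higher, and the 10 genes had a median log2 change of -0.53 beside 0.022 over all genes. All 7 calls were kept under all 7 alternatives and with each of the 7 libraries left out. Scaling by library size alone added a rise of Slc8a1 (0.33, edgeR adjusted p = 0.0400), and leaving out wild type replicate 3 added a fall of Casq1 (-1.28, edgeR adjusted p = 0.0471).

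Ryr2 stood at 1405, 1576 and 1533 CPM in the 3 wild type hearts and 1227, 784, 1108 and 779 CPM in the homozygous hearts. All 4 homozygous values were below the wild type range, with a log2 fold change ± SE of -0.65 ± 0.17 (edgeR adjusted p = 0.00551). Sri was at 41.9, 38.1 and 44.7 CPM in wild type and 70.6, 85.9, 76.1 and 75.4 CPM in homozygous hearts. Every homozygous heart exceeded every wild type heart, with a log2 fold change ± SE of 0.86 ± 0.089 (edgeR adjusted p = 5.91e-06). Fkbp1b held 8, 16 and 18 counts in wild type and 57, 72, 71 and 66 counts in homozygous libraries, or 0.900 ± 0.402 (SD, n = 3) against 3.67 ± 0.138 CPM (SD, n = 4). The homozygous values were the highest of the 39 libraries, with a log2 fold change ± SE of 2.02 ± 0.34 (edgeR adjusted p = 0.000271).

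In the lumen, Casq2 stood at 1056, 1104 and 1002 CPM in wild type and 1418, 903, 1106 and 947 CPM in homozygous hearts, on both sides of the wild type range, with 0.028 ± 0.14 (edgeR adjusted p = 0.879). Trdn was at 209, 198 and 181 and 171, 138, 167 and 126 CPM without overlap, with -0.41 ± 0.12 (edgeR adjusted p = 0.00826). Asph was at 229, 227 and 208 and 176, 106, 132 and 125 CPM, with -0.74 ± 0.14 (edgeR adjusted p = 0.000481), and replicate 1 was the highest of the homozygous hearts. Casq1 lay at 8.17 to 36.3 CPM in wild type and 4.499 to 19.1 CPM in homozygous hearts and did not pass, -0.88 ± 0.52 (edgeR adjusted p = 0.157).

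Jph2 stood at 649.9, 697 and 655 CPM in wild type and 414, 248, 355 and 419.6 CPM in homozygous hearts, with a log2 fold change ± SE of -0.92 ± 0.16 (edgeR adjusted p = 0.000253). The highest homozygous heart was at 419.6 CPM and the lowest wild type heart at 649.9 CPM. Jph1 was at 25.9, 27.6 and 26.0 and 17.0, 19.9, 19.2 and 12.6 CPM, with -0.65 ± 0.19 (edgeR adjusted p = 0.00883), and its groups did not overlap either. Slc8a1 was at 99.6, 113 and 106 CPM in wild type and 128, 122, 131 and 103 CPM in homozygous hearts, overlapping, with 0.17 ± 0.13 (edgeR adjusted p = 0.284).

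The 11 cardiomyocyte markers summed to 54868 to 60712 CPM in wild type and 30749 to 47843 CPM in homozygous hearts of 8 weeks, with 6 lower, 1 higher and none at 0. Pln was among the 6 lower markers. The 6 fibroblast markers summed to 986 to 1126 and 3833 to 6139 CPM and the 6 macrophage markers to 328 to 397 and 1075 to 1796 CPM, with 6 of 6 higher in each list. Of 5 endothelial markers 4 were lower and 1 higher, and of 5 smooth muscle and pericyte markers 2 were lower and 1 higher, with sums of 1081 to 1158 and 707 to 946 CPM. The atrial markers, 2 of 5 tested being higher, summed to 302 to 601 and 11818 to 18927 CPM. Most of the homozygous sum was Nppa, at 11491 to 18253 CPM beside 199 to 353 CPM in wild type. All 5 had a log2 change above 0, but Myl7 overlapped, at 28.7 to 99.6 and 26.3 to 109 CPM. The part of all these markers in these changes was not tested. Of the 32 other coupling and reticulum genes 28 were tested, and 12 fell and 5 rose. Hrc fell by 2.49 ± 0.28 (edgeR adjusted p = 1.12e-05), Atp2a2 by 1.66 ± 0.20 (edgeR adjusted p = 1.90e-05) and Pln by 1.48 ± 0.15 on the log2 scale (edgeR adjusted p = 5.60e-06). Tmem38b, a potassium channel of the reticulum, rose by 0.77 ± 0.12 (edgeR adjusted p = 0.000117), Stim1, the sensor of store-operated calcium entry, by 0.74 ± 0.20 (edgeR adjusted p = 0.00557) and Calr by 0.51 ± 0.17 (edgeR adjusted p = 0.0205).

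**Figure D3:**
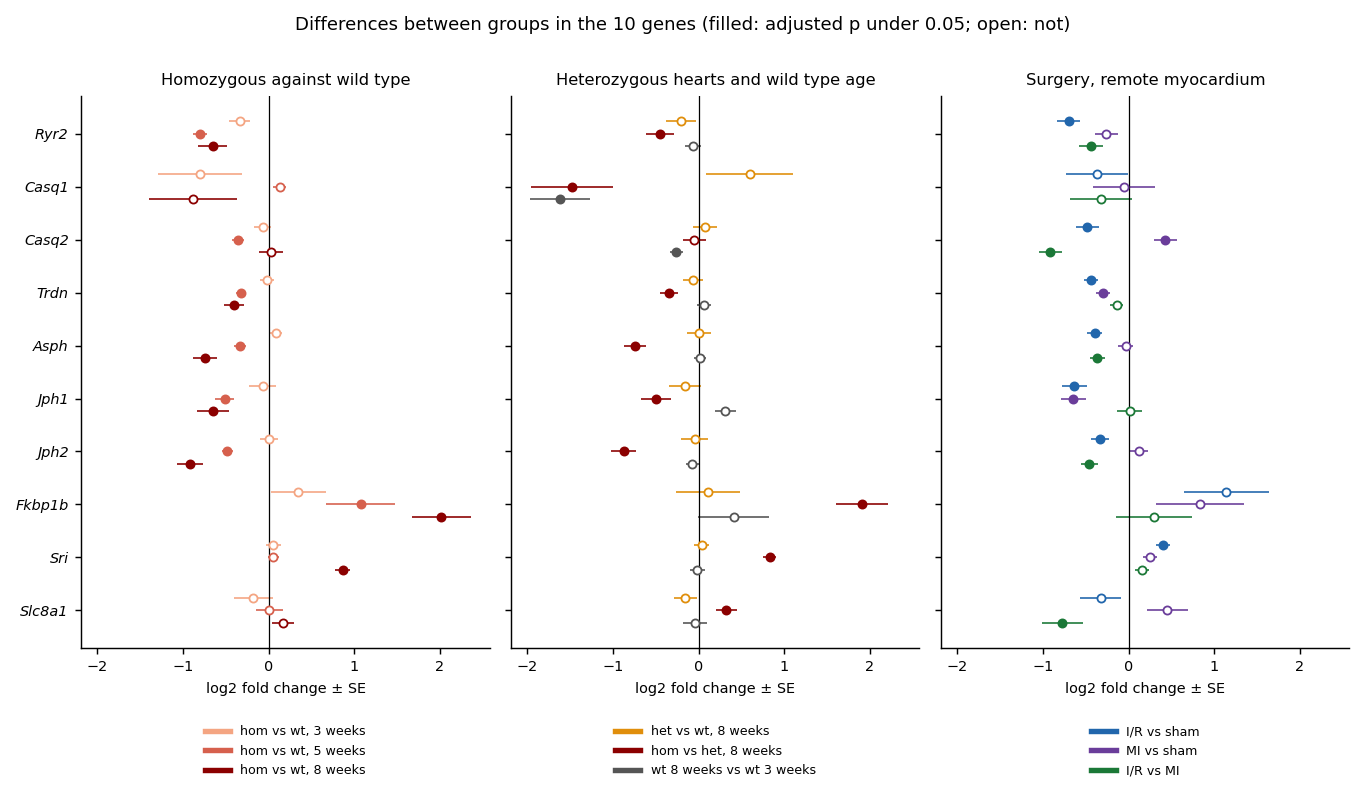
Log2 fold change of each of the 10 genes with its standard error in 9 comparisons, from the edgeR fits. Filled points passed an adjusted p of 0.05 and open points did not. In the left panel the falls of Ryr2, Jph1, Jph2, Trdn and Asph at 5 and 8 weeks lie left of 0 with the points at 3 weeks near or left of it, and Sri has a filled point right of 0 at 8 weeks, and at 5 weeks an open one, which passed with scaling by library size alone.

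The heterozygous hearts of 8 weeks were next compared with the other 2 genotypes. Against wild type none of the 10 genes passed. Of all 14314 genes edgeR called 0 (0.0%), although 326 had an unadjusted p under 0.05, none of the 10 among them. DESeq2, limma-voom and the other alternatives also called 0 genes. Ryr2 stood at 1437, 1028, 1396 and 1363 CPM, with -0.20 ± 0.17 (edgeR adjusted p = 1) against wild type, and without replicate 2, the library with raised Nppa, the log2 change was -0.11. Sri was at 42.5, 46.2, 40.0 and 41.7 CPM and Jph2 at 712, 584, 659 and 627 CPM, with 0.037 ± 0.089 (edgeR adjusted p = 1) and -0.047 ± 0.16 (edgeR adjusted p = 1). Fkbp1b held 13, 26, 17 and 10 counts, the most in replicate 2.

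Against heterozygous hearts, 6 of the 10 genes fell in homozygous hearts and 3 rose, where 30.0% of all genes were called lower and 32.0% higher. This comparison shares the homozygous hearts with the one above. Jph2 changed by -0.87 ± 0.15 (edgeR adjusted p = 0.000207), Asph by -0.75 ± 0.13 (edgeR adjusted p = 0.000247) and Trdn by -0.35 ± 0.11 (edgeR adjusted p = 0.013), while Sri changed by 0.83 ± 0.081 (edgeR adjusted p = 3.12e-06) and Fkbp1b by 1.91 ± 0.30 (edgeR adjusted p = 0.000138). Ryr2 fell by 0.45 ± 0.16 (edgeR adjusted p = 0.027), but not without heterozygous replicate 1, 3 or 4 or homozygous replicate 2 or 4, with log2 changes of -0.43 to -0.36 (adjusted p = 0.0619 to 0.0738). Jph1 changed by -0.50 ± 0.17 (edgeR adjusted p = 0.0246), which ended without heterozygous replicate 3 or 4 or homozygous replicate 4 (-0.48 to -0.35, adjusted p = 0.0541 to 0.0924). Casq1 lay at 21.6, 53.7, 33.5 and 22.4 CPM in heterozygous hearts and changed by -1.48 ± 0.48 (edgeR adjusted p = 0.017). Its call ended without heterozygous replicate 2, the library with the raised fast skeletal sum, at -1.13 (adjusted p = 0.0602), and without homozygous replicate 3 at -1.32 (adjusted p = 0.0510). Slc8a1 lay at 119, 76.0, 90.6 and 94.8 CPM and changed by 0.32 ± 0.12 (edgeR adjusted p = 0.0344), which ended without heterozygous replicates 2, 3 or 4 or homozygous replicates 1, 2 or 3 (0.23 to 0.32, adjusted p = 0.0627 to 0.0964), without the filter on low counts (adjusted p = 0.0537) and in 1 fit of all 39 libraries (adjusted p = 0.189). Scaling by library size alone left 3 falls and 3 rises, with the median of all genes at 0.22, and ended the calls of Ryr2, Trdn and Jph1 (adjusted p = 0.0933 to 0.147). In this comparison 11 of the 28 tested coupling and reticulum genes fell and 6 rose, led by Hrc at -2.46 ± 0.27 (edgeR adjusted p = 7.11e-06), Atp2a2 at -1.59 ± 0.19 (edgeR adjusted p = 1.44e-05) and Pln at -1.51 ± 0.14 (edgeR adjusted p = 2.41e-06) and by Jsrp1, a junctional protein, at 1.61 ± 0.58 (edgeR adjusted p = 0.0285), Tmem38b at 0.96 ± 0.11 (edgeR adjusted p = 8.61e-06) and Stim1 at 0.81 ± 0.18 (edgeR adjusted p = 0.00161).

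Whether the effect of homozygosity differed between ages was tested in 1 fit of all 39 libraries. The libraries of 3 and 8 weeks share 1 series of names (kb numbers), and those of 5 weeks carry other names. The 5-week libraries held 9.78 M to 11.98 M counts, against 13.07 M to 19.32 M at 3 and 8 weeks. Each step between ages thus also crosses library names and depth, which cannot be told apart from age. Between 5 and 3 weeks, 2 of the 10 genes differed, Asph by -0.43 ± 0.13 (edgeR adjusted p = 0.0189) and Jph2 by -0.50 ± 0.16 (edgeR adjusted p = 0.027), both more negative at 5 weeks, where 9.29% of genes had a more negative and 11.1% a more positive effect. Trdn at -0.31 ± 0.12 (edgeR adjusted p = 0.0588) and Ryr2 at -0.47 ± 0.20 (edgeR adjusted p = 0.0892) did not pass. Both calls ended with scaling by library size alone (edgeR adjusted p = 0.0952 for Asph and 0.158 for Jph2), which moved the median of all genes to 0.17. The Jph2 call also ended without homozygous 3 weeks replicate 2 or 4 or homozygous 5 weeks replicate 2 (-0.48 to -0.44, adjusted p = 0.0502 to 0.0625). Without homozygous 3 weeks replicate 3, the library with raised Nppa, 4 of the 10 genes were called, with Ryr2 at -0.59 (edgeR adjusted p = 0.0294) and Trdn at -0.38 (adjusted p = 0.0191). Both also passed without homozygous 5 weeks replicate 3, at -0.57 (adjusted p = 0.0445) and -0.34 (adjusted p = 0.0435). Trdn passed further by DESeq2 (-0.31, adjusted p = 0.0391) and without wild type 3 weeks replicate 1 or 3 or wild type 5 weeks replicate 1 (-0.35 to -0.34, adjusted p = 0.0438 to 0.0459).

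Between 8 and 5 weeks, Sri had a more positive effect at 8 weeks by 0.84 ± 0.11 (edgeR adjusted p = 4.82e-07) and Asph a more negative one by -0.38 ± 0.14 (edgeR adjusted p = 0.0343), where 14.4% of genes were called in the positive and 13.8% in the negative direction. The Sri difference was kept under all 5 alternatives and with each of the 15 libraries left out. That of Asph ended without wild type 5 weeks replicate 2, homozygous 5 weeks replicate 3, wild type 8 weeks replicates 1 or 2 or homozygous 8 weeks replicates 2, 3 or 4 (-0.38 to -0.29, adjusted p = 0.0580 to 0.0924). Casq2, which passed at 5 weeks and not at 8 weeks, had a difference of 0.41 ± 0.17 (edgeR adjusted p = 0.075), Jph2 one of -0.41 ± 0.17 (edgeR adjusted p = 0.0631) and Fkbp1b one of 0.96 ± 0.59 (edgeR adjusted p = 0.232), none of which passed. Casq2 passed without homozygous 8 weeks replicate 2 or 4 (0.48 and 0.47, adjusted p = 0.0402 and 0.0423), and Jph2 without homozygous 8 weeks replicate 1 or 4 (-0.49 and -0.50, adjusted p = 0.0271 and 0.0251), by limma-voom (-0.44, adjusted p = 0.0483) and with scaling by library size alone (-0.49, adjusted p = 0.0225). Ryr2 showed 0.18 ± 0.21 (edgeR adjusted p = 0.567). Among 30 coupling and reticulum genes tested, 6 had a more negative and 2 a more positive effect at 5 than at 3 weeks, and 7 a more negative and 3 a more positive effect at 8 than at 5 weeks. Those furthest from 0 at the first step were Pln at -0.89 ± 0.16 (edgeR adjusted p = 0.000132), Hrc at -0.85 ± 0.26 (edgeR adjusted p = 0.02), Cacnb2, a subunit of the surface calcium channel, at -0.72 ± 0.20 (edgeR adjusted p = 0.00982), Calr at 1.11 ± 0.17 (edgeR adjusted p = 2.22e-05) and Tmem38b at 0.45 ± 0.14 (edgeR adjusted p = 0.0204). At the second step they were Hrc at -1.37 ± 0.27 (edgeR adjusted p = 0.000269), Atp2a2 at -0.88 ± 0.22 (edgeR adjusted p = 0.00329), Pln at -0.66 ± 0.17 (edgeR adjusted p = 0.00279), Stim1 at 1.11 ± 0.20 (edgeR adjusted p = 7.85e-05), Itpr2, an inositol trisphosphate receptor, at 0.66 ± 0.15 (edgeR adjusted p = 0.00134) and Tmem38b at 0.53 ± 0.14 (edgeR adjusted p = 0.00523).

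In remote myocardium 3 days after ischemia-reperfusion, 6 of the 10 genes were lower than in sham hearts and 1 was higher. Ryr2, Casq2, Trdn, Asph, Jph1 and Jph2 fell, and Sri rose. The test called 14.1% of genes lower and 16.9% higher, and the 10 genes had a median log2 change of -0.38 beside -0.023 over all genes.

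Ryr2 stood at 1403 and 894 CPM in the sham hearts of 12 weeks and 1301 and 1371 CPM in those of 20 weeks, and at 614, 782, 797 and 871 CPM after ischemia-reperfusion. All 4 treated hearts were below the lowest sham heart, with a log2 fold change ± SE of -0.70 ± 0.14 (edgeR adjusted p = 0.00122). Sri was at 43.2 and 41.5 CPM in the sham hearts of 12 weeks and 43.5 and 42.0 CPM in those of 20 weeks, and at 51.1, 62.4, 58.1 and 53.9 CPM after ischemia-reperfusion. Every treated heart was above the sham range, with a log2 fold change ± SE of 0.40 ± 0.081 (edgeR adjusted p = 0.00155). Fkbp1b was at 0.694 ± 0.536 CPM in sham and 1.55 ± 0.713 CPM in treated hearts (SD, n = 4 each), and its change of 1.14 ± 0.49 (edgeR adjusted p = 0.0952) did not pass. Without sham 12 weeks replicate 2 it passed, at 1.65 (edgeR adjusted p = 0.0313), as it did with scaling by library size alone (1.36, adjusted p = 0.0471) and in 1 fit of all 39 libraries (1.14, adjusted p = 0.0417).

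Trdn was at 207, 203, 191 and 192 CPM after ischemia-reperfusion, below the sham range of 244 to 291 CPM, with -0.44 ± 0.079 (edgeR adjusted p = 0.000739). Asph was at 190.3, 193, 220.5 and 195 CPM beside 229 to 299 CPM in sham hearts, with -0.40 ± 0.088 (edgeR adjusted p = 0.00309). Casq2 was at 593, 654, 785 and 707 CPM and overlapped the sham range of 698 to 1083 CPM through sham 12 weeks replicate 2, with -0.48 ± 0.13 (edgeR adjusted p = 0.0109). Jph1 was at 16.4, 19.4, 15.1 and 20.0 CPM beside 23.9 to 34.0 CPM in sham hearts, with -0.63 ± 0.15 (edgeR adjusted p = 0.00431), and Jph2 at 353, 359.6, 376 and 383 CPM beside 389.9 to 557 CPM, with -0.33 ± 0.10 (edgeR adjusted p = 0.0231). Slc8a1 lay at 34.4, 92.1, 52.9 and 78.5 CPM, the highest coefficient of variation of this gene in any group (40.0%), and did not pass, -0.32 ± 0.24 (edgeR adjusted p = 0.336), nor did Casq1, -0.37 ± 0.36 (edgeR adjusted p = 0.486).

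Against the 2 sham hearts of 12 weeks alone, 3 of the 10 genes fell and 1 rose, and the calls of Casq2, Asph and Jph2 ended (edgeR adjusted p = 0.169, 0.0729 and 0.150). Scaling by library size alone moved the median of all genes to 0.21, ended the calls of the same 3 genes (adjusted p = 0.117, 0.136 and 0.486) and gave 2 rises and 3 falls, and the Jph2 call ended without ischemia-reperfusion replicate 1 or 2, sham 12 weeks replicate 1 or sham 20 weeks replicate 2 (-0.32 to -0.23, adjusted p = 0.0519 to 0.0878). The cardiomyocyte markers summed to 54105 to 61824 CPM in sham and 39779 to 46038 CPM in treated hearts, with 8 of 11 lower and none at 0, the fibroblast markers to 1003 to 1341 and 2497 to 4760.2 CPM, with 4 of 6 higher, and the macrophage markers to 256 to 398 and 902 to 1451 CPM, with 5 of 6 higher. Of 5 endothelial markers 2 were lower, of 5 smooth muscle and pericyte markers 1 was lower and 2 higher, and of 5 atrial markers tested 1 was higher. Their part in these changes was not tested. Of 26 tested coupling and reticulum genes 10 fell and 3 rose. Atp2a1, the pump of fast skeletal muscle, fell by 1.83 ± 0.62 (edgeR adjusted p = 0.034) from a mean of 1.48 CPM, Hrc by 0.83 ± 0.13 (edgeR adjusted p = 0.000241) and Atp2a2 by 0.67 ± 0.15 (edgeR adjusted p = 0.00295). Bin1 rose by 0.98 ± 0.20 (edgeR adjusted p = 0.00192), Calr by 0.59 ± 0.082 (edgeR adjusted p = 8.97e-05) and Fkbp1a, the close relative of Fkbp1b, by 0.29 ± 0.086 (edgeR adjusted p = 0.0182).

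In remote myocardium 8 weeks after infarction, 2 of the 10 genes were lower than in sham hearts and 1 was higher, where 4.77% of genes were called lower and 6.62% higher. Jph1 stood at 18.5, 14.7, 15.2 and 22.0 CPM, all below the sham range, with a log2 fold change ± SE of -0.64 ± 0.15 (edgeR adjusted p = 0.0125), a call kept under all 7 alternatives and with each of the 8 libraries left out. Trdn was at 223, 200.4, 211 and 238 CPM, also below the sham range, with -0.30 ± 0.079 (edgeR adjusted p = 0.0263). That call ended with scaling by library size alone (adjusted p = 0.105) and without infarction replicate 1, 2 or 3 or sham 20 weeks replicate 1 (-0.31 to -0.26, adjusted p = 0.0543 to 0.0938). Casq2 was at 1146, 1323, 1285 and 1388 CPM, above all sham hearts, with 0.43 ± 0.13 (edgeR adjusted p = 0.0436). It ended against the 2 sham hearts of 20 weeks alone (0.27, adjusted p = 0.295) and without any 1 of 7 libraries, which are all except sham 20 weeks replicate 2 (0.31 to 0.48, adjusted p = 0.0563 to 0.108).

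Ryr2 was at 1071, 990.4, 987 and 1098 CPM, within the sham range, with -0.26 ± 0.13 (edgeR adjusted p = 0.232). Without sham 12 weeks replicate 2, the sham heart with the lowest Ryr2, its change was -0.39 (edgeR adjusted p = 0.0384). Sri was at 49.0, 55.9, 50.4 and 46.8 CPM, above all 4 sham hearts, and did not pass, 0.25 ± 0.081 (edgeR adjusted p = 0.0604), although it was called by DESeq2 (0.25, adjusted p = 0.0466), with scaling by library size alone (0.36, adjusted p = 0.0191) and in 1 fit of all 39 libraries (0.25, adjusted p = 0.0215). Jph2 at 0.12 ± 0.10 (edgeR adjusted p = 0.479), Asph at -0.033 ± 0.087 (edgeR adjusted p = 0.852), Fkbp1b at 0.84 ± 0.51 (edgeR adjusted p = 0.318), Slc8a1 at 0.45 ± 0.24 (edgeR adjusted p = 0.24) and Casq1 at -0.049 ± 0.36 (edgeR adjusted p = 0.953) did not pass. The 10 genes had a median log2 change of 0.045 beside a median near 0 over all genes. Of 26 tested coupling and reticulum genes 2 fell, Hrc at -0.48 ± 0.13 (edgeR adjusted p = 0.0283) and Pln at -0.48 ± 0.11 (edgeR adjusted p = 0.0143) on the log2 scale, and none rose. Cardiomyocyte markers summed to 46251 to 55461 CPM, with 2 of 11 lower, fibroblast markers to 1552 to 2327 CPM, with 4 of 6 higher, and macrophage markers to 373 to 514 CPM, with 1 of 6 higher. Pln was 1 of the 2 lower cardiomyocyte markers. Of 5 atrial markers tested 2 were higher, with sums of 265 to 711 CPM in sham and 2281 to 5660.4 CPM in infarction hearts. Most of the infarction sum was Nppa, at 2243 to 4787 CPM beside 170 to 364 CPM in sham hearts. All 5 had a log2 change above 0, but Myl7 overlapped, at 13.4 to 127 CPM in sham and 2.76 to 216 CPM in infarction hearts. Of 5 smooth muscle and pericyte markers 1 was lower, and of 5 endothelial markers 0 passed. The part of all these markers in these changes was not tested.

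Set directly against infarction, ischemia-reperfusion hearts had 5 of the 10 genes lower and none higher, where 8.84% of genes were called lower and 11.2% higher. Age, time after surgery and kind of injury all differ between these groups and cannot be told apart. In the same comparison 5 of 6 macrophage markers were higher and 4 of 11 cardiomyocyte markers lower. Of 6 fibroblast markers 2 were higher and 1 lower. Of 5 smooth muscle and pericyte markers 3 were higher, and of 5 endothelial and 5 tested atrial markers 2 each were lower. The part of these markers in the changes of the 10 genes was not tested. Casq2 differed by -0.91 ± 0.13 (edgeR adjusted p = 0.000248), with all 4 ischemia-reperfusion hearts below all 4 infarction hearts. Jph2 differed by -0.46 ± 0.10 (edgeR adjusted p = 0.00574) and Asph by -0.36 ± 0.087 (edgeR adjusted p = 0.00827), both without overlap. These 3 calls were kept under all 7 alternatives and with each of the 8 libraries left out. Ryr2 differed by -0.44 ± 0.13 (edgeR adjusted p = 0.0316), but its call was lost with scaling by library size alone (adjusted p = 0.0972) and without ischemia-reperfusion replicates 1, 2 or 3 or infarction replicates 1, 3 or 4 (-0.46 to -0.34, adjusted p = 0.0505 to 0.0944). Slc8a1 differed by -0.77 ± 0.24 (edgeR adjusted p = 0.0309), with overlapping groups, and its call ended with scaling by library size alone (adjusted p = 0.0649) and without ischemia-reperfusion replicates 1 or 3 or infarction replicates 1, 2 or 4 (-0.76 to -0.57, adjusted p = 0.0590 to 0.0831). Scaling by library size alone added a rise of Sri (0.27, adjusted p = 0.0418) and gave 3 falls and 1 rise. Jph1, lower in both injuries against the shared sham hearts, differed by 0.013 ± 0.15 (edgeR adjusted p = 0.966). Of 26 coupling and reticulum genes tested 3 fell and 2 rose. They were Srl, a luminal calcium-binding protein, at -0.52 ± 0.13 (edgeR adjusted p = 0.0126), Speg, a kinase of the junction, at -0.38 ± 0.091 (edgeR adjusted p = 0.00856), Tmem38a at -0.36 ± 0.082 (edgeR adjusted p = 0.00609), Calr at 0.42 ± 0.082 (edgeR adjusted p = 0.0024) and Bin1 at 0.73 ± 0.20 (edgeR adjusted p = 0.0162).

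The effect of homozygosity at 8 weeks was then compared with that of infarction in the fit of all libraries, in groups with no library in common. Jph2 was more negative in the mutant by -1.02 ± 0.17 (edgeR adjusted p = 1.26e-05) and Asph by -0.68 ± 0.14 (edgeR adjusted p = 0.00018), and Sri was more positive by 0.64 ± 0.11 (edgeR adjusted p = 1.52e-05), where 17.7% of genes were called in the negative and 19.6% in the positive direction. These 3 differences were kept under all 5 alternatives and with each of the 15 libraries left out. Jph1 had 0.020 ± 0.24 (edgeR adjusted p = 0.959) and Trdn -0.083 ± 0.12 (edgeR adjusted p = 0.624). Ryr2 at -0.37 ± 0.21 (edgeR adjusted p = 0.167) and Casq2 at -0.38 ± 0.17 (edgeR adjusted p = 0.0852) did not pass, and both passed without homozygous 8 weeks replicate 1 (-0.52 and -0.55, adjusted p = 0.0401 and 0.00581). Casq2 also passed with scaling by library size alone (-0.37, adjusted p = 0.0460) and without sham 20 weeks replicate 1 or 2 (-0.46 and -0.47, adjusted p = 0.0452 and 0.0369). Of 30 coupling and reticulum genes tested 8 were more negative and 3 more positive in the mutant. Hrc stood at -1.98 ± 0.27 (edgeR adjusted p = 8.10e-07), Atp2a2 at -1.33 ± 0.22 (edgeR adjusted p = 1.57e-05) and Speg at -1.09 ± 0.18 (edgeR adjusted p = 1.09e-05), and on the other side Tmem38b at 0.96 ± 0.14 (edgeR adjusted p = 2.86e-06), Stim1 at 0.70 ± 0.20 (edgeR adjusted p = 0.00518) and S100a1, a calcium sensor that binds the receptor, at 0.38 ± 0.15 (edgeR adjusted p = 0.0376). The 2 settings also differ in age and in surgery, which cannot be told apart from the kind of disease.

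In wild type hearts alone, 8 weeks was compared with 3 weeks. Casq1 was at 45.3, 87.5, 75.6 and 59.6 CPM at 3 weeks and 36.3, 20.2 and 8.17 CPM at 8 weeks without overlap, a log2 fold change ± SE of -1.62 ± 0.35 (edgeR adjusted p = 0.00967). Casq2 was at 1376, 1214, 1193 and 1289 and 1056, 1104 and 1002 CPM, with -0.26 ± 0.076 (edgeR adjusted p = 0.0401). The Casq2 call was lost in 1 fit of all 39 libraries (adjusted p = 0.210) and without wild type 3 weeks replicates 1 or 4 or any 1 of the 3 hearts of 8 weeks (-0.29 to -0.22, adjusted p = 0.0711 to 0.135). The other 8 genes did not pass, with Ryr2 at -0.066 ± 0.10 (edgeR adjusted p = 0.703), Jph1 at 0.31 ± 0.12 (edgeR adjusted p = 0.116) and Sri at -0.013 ± 0.088 (edgeR adjusted p = 0.941). Jph1 passed without wild type 3 weeks replicate 3 (0.45, adjusted p = 0.0110) and without the filter on low counts (0.32, adjusted p = 0.0481). Over all genes 6.29% were called lower and 7.53% higher. Of 26 coupling and reticulum genes 3 fell and 4 rose, among them Cav3, the muscle caveolin, at -0.51 ± 0.089 (edgeR adjusted p = 0.00279), Bin1 at -0.40 ± 0.12 (edgeR adjusted p = 0.0451) and Srl at -0.27 ± 0.081 (edgeR adjusted p = 0.045), and S100a1 at 0.45 ± 0.083 (edgeR adjusted p = 0.00374), Tmem38b at 0.43 ± 0.11 (edgeR adjusted p = 0.0187) and Pln at 0.31 ± 0.090 (edgeR adjusted p = 0.0379).

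Ratios of 2 genes within a library do not depend on how libraries are scaled, and 5 ratios per exon length were compared in 6 comparisons, 30 tests in all. None passed after Benjamini-Hochberg adjustment (lowest adjusted p = 0.143), and 6 had an unadjusted exact permutation p of 0.0286, the smallest that 4 hearts against 4 allow. With 3 against 4 the smallest is 0.0571. All these tests were two-sided.

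Sri per Ryr2 was 17.7, 14.3 and 17.3% in wild type and 34.2, 65.0, 40.7 and 57.5% in homozygous hearts at 8 weeks, without overlap (log2 difference 1.54, exact permutation p = 0.0571, adjusted p = 0.171). At 5 weeks it was 20.8, 24.1, 24.6 and 21.4% and 46.3, 38.8, 36.2 and 44.2%, again without overlap (log2 difference 0.86, exact permutation p = 0.0286, adjusted p = 0.143). After ischemia-reperfusion it was 49.4, 47.3, 43.2 and 36.7%, above 18.2 and 27.6% in sham hearts of 12 weeks and 19.8 and 18.2% in those of 20 weeks (log2 difference 1.09, exact permutation p = 0.0286, adjusted p = 0.143). Infarction hearts lay at 27.1, 33.5, 30.3 and 25.3% and overlapped the sham hearts (log2 difference 0.49, exact permutation p = 0.0857, adjusted p = 0.198).

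Fkbp1b per Ryr2 was 0.912, 1.81 and 2.27% in wild type and 7.98, 13.6, 9.56 and 13.3% in homozygous hearts at 8 weeks (log2 difference 2.80, exact permutation p = 0.0571, adjusted p = 0.171), and 2.79, 2.31, 1.32 and 0.714% and 8.92, 4.09, 4.36 and 9.40% at 5 weeks (log2 difference 1.99, exact permutation p = 0.0286, adjusted p = 0.143). Neither pair of groups overlapped. The exchanger per calcium pump, Slc8a1 to Atp2a2, was 0.201, 0.220 and 0.217% in wild type, 0.227, 0.203, 0.177 and 0.199% in heterozygous and 0.577, 0.894, 0.883 and 0.778% in homozygous hearts at 8 weeks. The homozygous hearts stood above both other groups (against wild type, log2 difference 1.86, exact permutation p = 0.0571, adjusted p = 0.171). At 5 weeks the ratio was 0.2502, 0.199, 0.162 and 0.217% in wild type and 0.281, 0.393, 0.380 and 0.349% in homozygous hearts (log2 difference 0.77, exact permutation p = 0.0286, adjusted p = 0.143), and in infarction hearts it was 0.335, 0.419, 0.252 and 0.324%, above all sham hearts (log2 difference 0.75, exact permutation p = 0.0286, adjusted p = 0.143). Slc8a1 itself passed in neither main comparison with wild type nor in that with sham. At 8 weeks it was called higher with scaling by library size alone (0.33, edgeR adjusted p = 0.0400). Atp2a2 fell at 5 and 8 weeks. It was not called after infarction, where Slc8a1 changed by 0.45 ± 0.24 (edgeR adjusted p = 0.24).

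Casq1 per Casq2 was higher in all 4 homozygous than in all 4 wild type hearts at 5 weeks, at 7.89, 6.72, 6.42 and 7.30% against 4.66, 5.22, 5.59 and 4.75% (log2 difference 0.49, exact permutation p = 0.0286, adjusted p = 0.143). At 8 weeks it was 1.89, 0.699, 1.05 and 2.42% against 4.81, 2.56 and 1.14%, overlapping and with the opposite sign (log2 difference -0.84, exact permutation p = 0.229, adjusted p = 0.403). Jph1 per Jph2 overlapped between the groups in all 6 comparisons. It was lowest relative to its control after infarction, at 3.11, 2.50, 2.45 and 3.90% beside 4.19 and 6.05% and 7.16 and 3.66% in the sham hearts of 12 and 20 weeks (log2 difference -0.79, exact permutation p = 0.0571, adjusted p = 0.171).

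**Figure D4:**
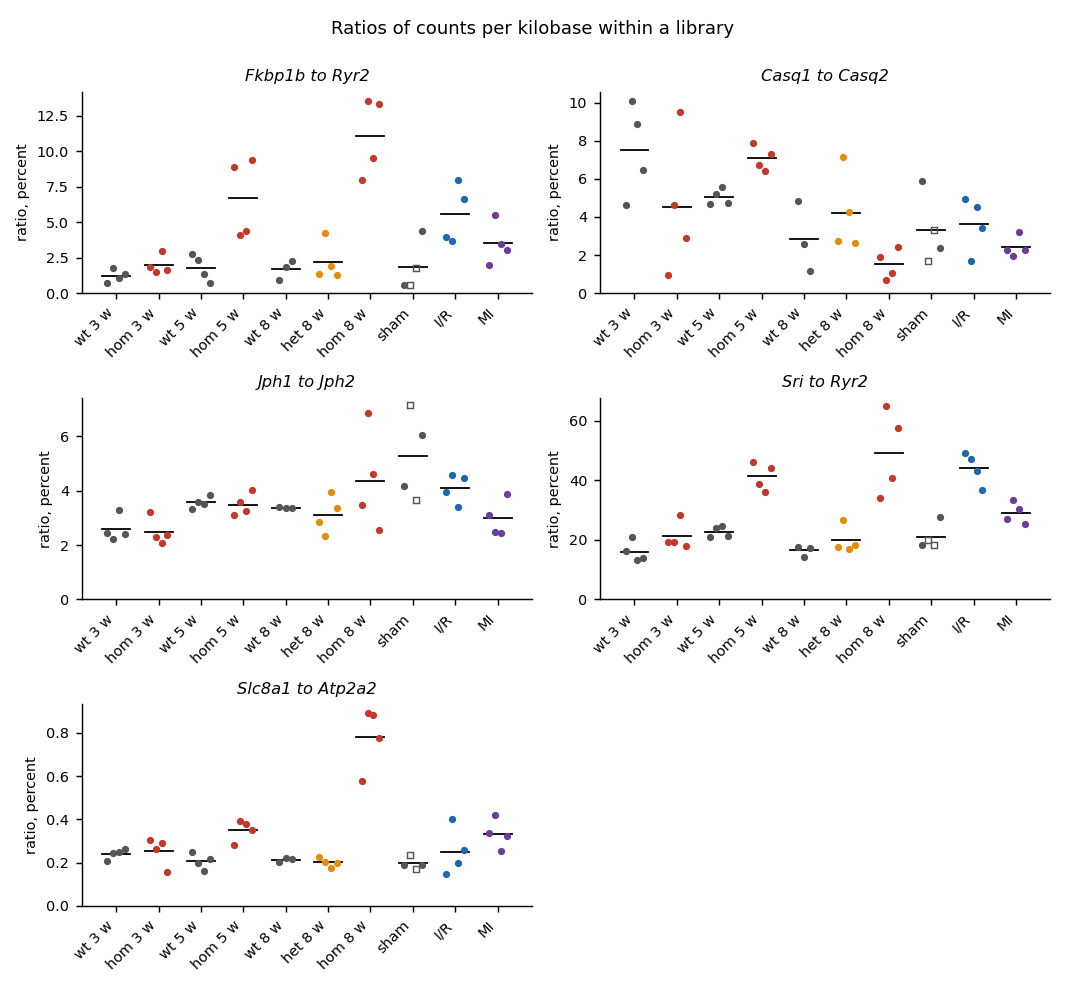
Ratio of 2 genes' counts per kilobase within each library, in percent, for 5 gene pairs over the 10 groups, with libraries as points, group means as lines and sham hearts of 20 weeks as open squares. Each axis starts at 0. Slc8a1 to Atp2a2 lies at 0.577% to 0.894% in homozygous hearts of 8 weeks and at 0.177% to 0.227% in heterozygous hearts.

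The genes whose group means moved most like Ryr2 over the 10 groups, by Pearson r of log2 level among 10007 genes with at least 10 CPM in a group, were St6galnac6 (r = 0.97), Tmem38a (0.97), which encodes a potassium channel of the reticulum, Cdc40 (0.97), Fam160a1 (0.96) and Mlycd (0.96), the malonyl-CoA decarboxylase. Of the other 9 genes, 8 were abundant enough to be ranked. Jph2 had r = 0.87 with Ryr2 and rank 199, Jph1 0.80 and rank 642, Casq2 0.69 and rank 1523, and Slc8a1 0.50. Asph (0.40), Casq1 (0.30) and Trdn (0.19) were less alike, and Sri had r = -0.63. Those most like Sri were Slc35b3 (r = 0.98), Ifitm2 (0.98), Ssu72 (0.98), Kirrel (0.97) and Cttn (0.97), and the member with the most opposite pattern was Asph at -0.82, followed by Jph2 at -0.76. These are descriptions over 10 group means, with all genes measured in the same libraries. Depth and cell type marker sums also differed between the groups, and no test was made.

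Some counts could hold reads of neighbouring genes, since the strand setting of the counting is not given in the sources used here. Asph (ENSMUSG00000028207, chromosome 4 from 9448069 to 9669344, minus strand, GRCm38) shares 14.3% of its merged exon bases with Clvs1 on the other strand, which averaged 0.625 CPM over the 39 libraries. Casq1 (ENSMUSG00000007122, chromosome 1 from 172209894 to 172219868, minus strand) shares 8.00% with Gm17224, at 0.443 CPM. The antisense overlaps of Jph1 and Slc8a1 cover at most 1.57% of their exons, and Ryr2 (ENSMUSG00000021313, chromosome 13 from 11553102 to 12106945, minus strand), Jph2 (ENSMUSG00000017817, chromosome 2 from 163336242 to 163397993, minus strand), Sri (ENSMUSG00000003161, chromosome 5 from 8046078 to 8069379, plus strand) and Fkbp1b (ENSMUSG00000020635, chromosome 12 from 4833174 to 4841591, minus strand) have none. The remaining genes are Casq2 (ENSMUSG00000027861, chromosome 3 from 102086415 to 102146514, plus strand), Trdn (ENSMUSG00000019787, chromosome 10 from 33080554 to 33476709, plus strand), Jph1 (ENSMUSG00000042686, chromosome 1 from 16964560 to 17097889, minus strand) and Slc8a1 (ENSMUSG00000054640, chromosome 17 from 81373105 to 81738377, minus strand). Counts per gene sum the splice forms, so junctin and the hydroxylase of Asph, and the short and long forms of triadin, were not separated.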

How the data were processed

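Raw read counts per gene were deposited by the authors for 39 libraries of mouse left ventricle. Per the submitters' processing notes, STAR 2.7.3a, featureCounts of Subread 2.0.0 and the mm10 genome were used. Neither an annotation release nor a strand setting is given in the sources used here. RNA was extracted with Trizol and made into TruSeq stranded mRNA libraries, per the labels' protocols. IDs were named with GENCODE vM21, which matched 36429 of 38293, and 0.133% of counts lay in unnamed IDs.

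Each age, and the surgery set, was fitted alone with edgeR 4.0.16 (R 4.3.3): TMM scaling, filterByExpr, glmQLFit and glmQLFTest, with Benjamini-Hochberg adjustment over all genes tested and a threshold of 0.05. Wild type hearts of 8 and 3 weeks had a fit of their own, and differences between effects came from 1 fit of all 39 libraries. The SE is the absolute log2 change divided by the root of F. Gene ratios used the exact two-sided permutation test of scipy 1.17.1. Alternatives were DESeq2 1.42.0, limma-voom (limma 3.58.1), RLE and library size scaling, no filter, age-matched shams, 1 fit of all libraries, a replicate block and leaving out each library. The edgeR script was tested on simulated data.

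The 10 genes and the gene lists were chosen with earlier results of these data known. All 10 are named, and of 32 other coupling and reticulum genes the 3 largest called rises and falls are named. Protein sequences were not used here.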

Additional observations from a re-analysis of the deposited data

Results flagged for a closer look

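Of 90 groups of 4 libraries tested with Dixon's criterion over the 10 genes, 3 held a library far from the others, where chance flags about 1 in 20 groups. Trdn stood at 167 CPM in homozygous 3 weeks replicate 3, with the other libraries at 192 to 196 CPM. This is the library with raised Nppa and the raised fast skeletal sum. Trdn stood at 227 CPM in wild type 5 weeks replicate 1, with the others at 241 to 242 CPM. Asph stood at 220.5 CPM in ischemia-reperfusion replicate 3, with the others at 190.3 to 195 CPM.

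In 7 cases the effect on a gene differed between settings by the edgeR test of the difference itself. The effect of homozygosity was lower at 5 than at 3 weeks for Asph by -0.43 (adjusted p = 0.0189) and for Jph2 by -0.50 (adjusted p = 0.0270) on the log2 scale. Both calls ended with scaling by library size alone (edgeR adjusted p = 0.0952 and 0.158). That of Jph2 was kept in 13 of 16 fits with 1 library left out. Between 8 and 5 weeks the effect of homozygosity differed for Asph by -0.38 (adjusted p = 0.0343) and for Sri by 0.84 (adjusted p = 4.82e-07). The Asph call was kept in 8 of 15 such fits and the Sri call in 15 of 15. Both steps between ages also cross to the 5-week libraries, whose names and depth differ, which cannot be told apart from age. The effect at 8 weeks differed from that of infarction for Asph by -0.68 (adjusted p = 0.00018), for Jph2 by -1.02 (adjusted p = 1.26e-05) and for Sri by 0.64 (adjusted p = 1.52e-05). Marker sums of fibroblasts and macrophages in homozygous hearts of 5 and 8 weeks exceeded those of all wild type hearts of the same age. The sums of cardiomyocytes, of endothelial cells and of smooth muscle and pericyte cells lay below those of all wild type hearts. The part of these markers in the differences above was not tested.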

How the results depend on the processing

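Counts of the 10 genes called were within 1.5 times of the main count under the planned settings, with 3 exceptions. Against age-matched shams alone 4 genes were called after ischemia-reperfusion in place of 7. With all 39 libraries in the fit 1 was called between wild type hearts of 8 and 3 weeks in place of 2, and with library size scaling 0 in place of 2 differed between 5 and 3 weeks. With 1 library left out, the counts ran from 1 to 3 for infarction against sham, 3 to 5 for ischemia-reperfusion against infarction, 1 to 3 for wild type hearts of 8 against 3 weeks, 1 to 4 for the difference at 5 and 3 weeks, 1 to 3 for that at 8 and 5 weeks and 3 to 5 for that between the mutant at 8 weeks and infarction. Over all genes, the 3 weeks comparison went from 0 calls to 118 with DESeq2, 25 with no filter on low counts and 40 with all libraries in the fit, and the age-matched shams gave 2174 in place of 4222 calls for ischemia-reperfusion and 853 in place of 1550 for infarction.

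Values near 0 that passed no test changed sign under some settings, and the cause was not tested. With library size scaling, the log2 change was 0.0068 for Trdn at 3 weeks, -0.026 for Asph in heterozygous hearts, 0.13 for Casq2 in homozygous against heterozygous hearts, 0.047 for Casq1 and 0.081 for Asph after infarction, -0.019 for Asph in wild type hearts of 8 against 3 weeks and 0.18 for Sri in the difference at 5 and 3 weeks. With limma-voom it was -0.0029 for Jph2 at 3 weeks, 0.089 for Casq1 after infarction and -0.0025 for Jph1 between the mutant and infarction, where no filter on low counts gave -0.018. Age-matched shams gave 0.19 for Casq1 after infarction, and -0.15 and 0.012 for the ratio of Casq1 to Casq2 after ischemia-reperfusion and infarction. Leaving out 1 library also turned such values. For homozygous against wild type hearts at 3 weeks the range was Casq2 -0.12 to 0.0057, Trdn -0.071 to 0.029, Jph1 -0.15 to 0.064, Jph2 -0.070 to 0.067, Slc8a1 -0.33 to 0.010, the ratio of Jph1 to Jph2 -0.20 to 0.048 and the ratio of Slc8a1 to Atp2a2 -0.065 to 0.26. At 5 weeks the range was Slc8a1 -0.12 to 0.16 and the ratio of Jph1 to Jph2 -0.11 to 0.016. At 8 weeks the range was Casq2 -0.12 to 0.11. For heterozygous against wild type hearts the range was Asph -0.039 to 0.034, Fkbp1b -0.23 to 0.39, Sri -0.024 to 0.089 and the ratio of Fkbp1b to Ryr2 -0.058 to 0.60. For homozygous against heterozygous hearts the range was Casq2 -0.20 to 0.029. For ischemia-reperfusion against sham the range was Casq1 -0.58 to 0.079 and the ratio of Casq1 to Casq2 -0.092 to 0.52. For infarction against sham the range was Casq1 -0.27 to 0.40, Asph -0.092 to 0.034 and the ratio of Casq1 to Casq2 -0.59 to 0.014. For ischemia-reperfusion against infarction the range was Jph1 -0.063 to 0.14. In wild type hearts of 8 against 3 weeks the range was Trdn -0.00087 to 0.11, Asph -0.024 to 0.055, Sri -0.067 to 0.047 and Slc8a1 -0.14 to 0.065. For the difference of effects at 5 and 3 weeks the range was Sri -0.078 to 0.017 and Slc8a1 -0.035 to 0.31. For that at 8 and 5 weeks the range was Trdn -0.13 to 0.012 and Jph1 -0.20 to 0.013. For that between the mutant at 8 weeks and infarction the range was Jph1 -0.12 to 0.13.

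Replicate numbers were not treated as pairs in the main fits. Deviations from the group means of samples with the same number had correlations of -0.089 to 0.20. The highest was that of wild type and homozygous 3 weeks replicate 1. The next highest, ischemia-reperfusion and infarction replicate 3, was 0.073. With so few libraries in a group, this check cannot exclude a pairing. With the replicate number as a block, 0 of the 10 genes were called at 3 weeks, 7 at 5 weeks, 7 at 8 weeks, 0 for heterozygous hearts, 9 for homozygous against heterozygous hearts and 5 for ischemia-reperfusion against infarction, as without it. The block turned Jph2 at 3 weeks to -0.0037. The block was not run for comparisons with sham hearts, whose numbers restart at each age, for wild type hearts of 8 against 3 weeks or for the differences between effects. Depth limits Fkbp1b, with 2 to 72 counts per library. The ratio tests lose an unadjusted p of 0.0286 with any library left out, where 3 hearts against 4 allow 0.0571 at the lowest.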
